A study of Mus musculus with 10 samples.

Results

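The Notch pathway genes described here are 10: the receptors Notch1, Notch2 and Notch3, the ligands Jag1, Jag2 and Dll1, the receptor-modifying enzyme Lfng, and the target genes Hes1, Hey1 and Heyl. They were taken by gene name from the non-control probes of a mouse expression array, which gave 13 probes of 55681, for 10 of 34607 names. A gene was tested when both arrays of some group read 1 of its probes well above background, and all 10 met this. Jag2 did so through the 19-day culture alone.

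Expression was measured on 10 single-colour arrays, 2 in each of 5 groups. All cells came from mice of a mixed C57BL6J and ICR background that carry a Six2-GFP transgene, which marks nephron progenitors, the mesenchymal cells that form the epithelium of the nephron. E11.5 progenitors were GFP-positive cells sorted from embryos at E11.5, and P0 progenitors were GFP-positive cells sorted at birth. P0 non-progenitors were the newborn cells without GFP, a mixture of all cells outside the GFP gate. For the 8-day and 19-day cultures, GFP-positive E11.5 cells were grown in conditioned medium. The labels give no genetic change other than the transgene and no added compound. A second sort of the cultured cells is not mentioned, nor is it stated that the 2 samples of a group came from separate litters or cultures. The p-values therefore measure the spread between these samples, which may be technical. The newborn samples are P0 by their labels, which were followed here, and E19.5 by the data names.

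Notch receptors are cell surface proteins that bind ligands of the Jagged and Delta-like families on neighbouring cells. Binding leads to cleavage of the receptor by an ADAM protease and by gamma-secretase, and the released intracellular part joins the DNA-binding protein Rbpj in the nucleus and switches on target genes, among them repressors of the Hes and Hey families. Fringe enzymes such as Lfng add sugars to the receptors and change which ligands activate them. In the developing kidney, Notch signals help progenitors leave the Six2-positive state, Notch2 is the receptor most required for the proximal part of the nephron, and Jag1 and Dll1 are known ligands of the early nephron. In vessels and the mural cells around them, the receptors Notch4 and Notch3 and the ligand Dll4 are well known.

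Levels below are log2 intensities relative to the 75th percentile of the same array, so that 0 is that percentile and a difference of 1 is a doubling. A level belongs to its probe and was compared between groups, not between genes. Between 60.4% and 69.8% of spots were well above background on each array, with none saturated. Precision is limited by having 2 arrays a group. The 6 freshly sorted samples shared slide 1 with the first 8-day array, and the second 8-day array shared slide 2 with the 19-day pair, so only the 8-day pair tells slide from culture. Six2 itself was at 4.70 and 4.82 in E11.5 progenitors, 4.27 and 4.11 in P0 progenitors, -2.26 and -4.55 in P0 non-progenitors, 5.21 and 4.61 at 8 days, and 1.06 and 2.32 at 19 days. Its level thus followed the GFP gate, and lay lower in the 19-day arrays than in every other GFP-positive group. The root mean square difference between the 2 arrays of a group over tested genes was 1.22 in E11.5 progenitors and 0.833 to 1.08 in the other groups.

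**Figure D1:**
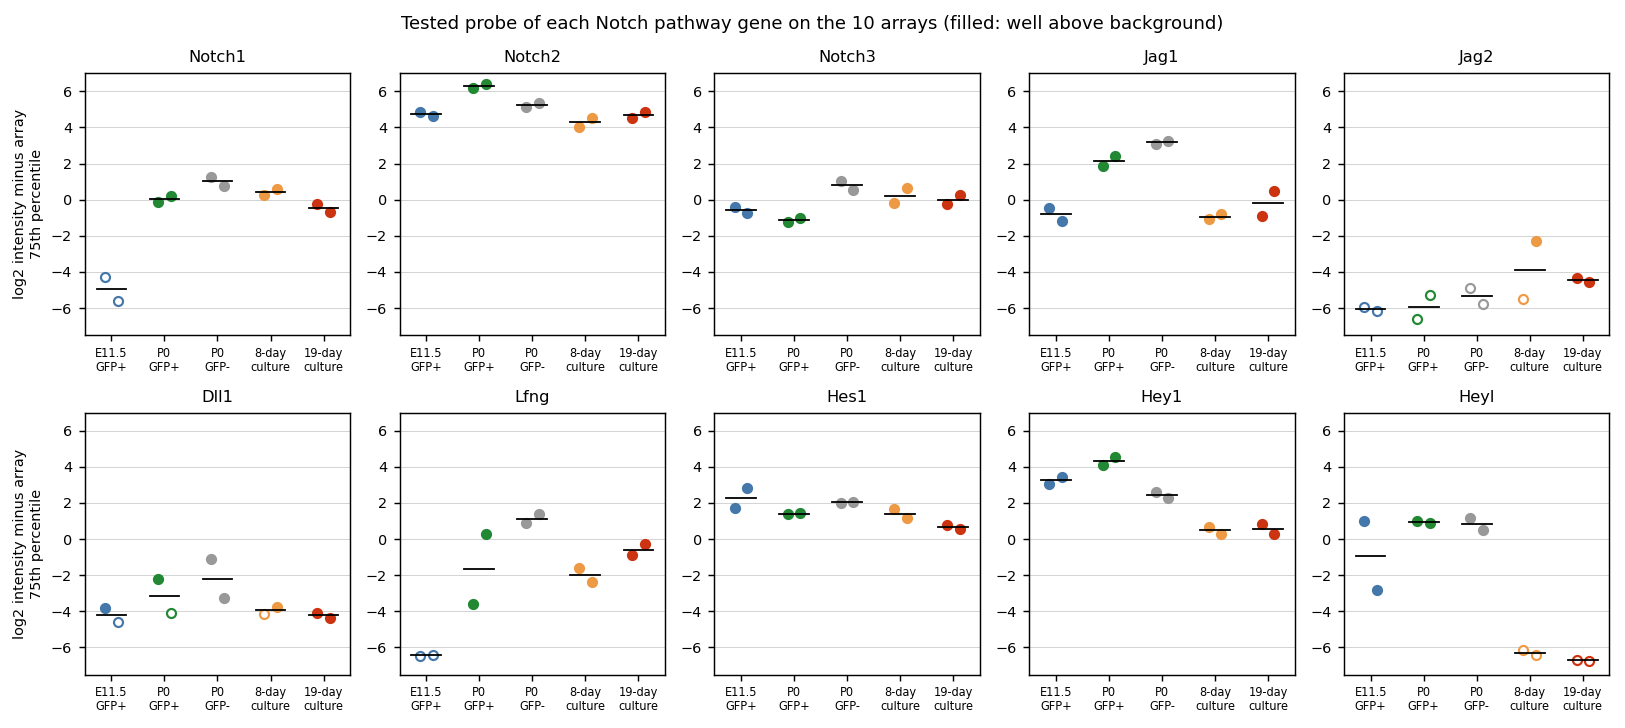
Level of the tested probe of each Notch pathway gene on the 10 arrays, as log2 intensity minus the 75th percentile of the array, with points for arrays, bars for group means and open points where the probe was not well above background. The tested probe of Notch1 and that of Lfng were not well above background in E11.5 progenitors, and that of Heyl was not well above background on any of the 4 culture arrays.

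Among the receptors, Notch2 was measured well above background on every array. Its level was 4.86 and 4.61 in E11.5 progenitors, 6.16 and 6.42 in P0 progenitors, 5.13 and 5.35 in P0 non-progenitors, 4.05 and 4.53 at 8 days and 4.5 and 4.86 at 19 days. P0 progenitors lay above every other group with no overlap, and the E11.5 and 19-day values overlapped, as did the 19-day and 8-day values. A second Notch2 probe gave the same top group, at 0.66 and 1.31 in P0 progenitors and between -0.70 and 0.03 on the other 8 arrays. The probes of Notch2 lie at chr3:97953914-97953973 and chr3:97951233-97951292 on assembly mm9.

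Notch1, a receptor that acts beside Notch2 in the nephron and is prominent in endothelium, had 2 probes that gave different accounts. The tested probe, at chr2:26314630-26314689 on mm9, was not well above background on either E11.5 array, where it read -4.25 and -5.61. It read -0.12 and 0.21 in P0 progenitors, 1.26 and 0.78 in P0 non-progenitors, 0.26 and 0.59 at 8 days and -0.24 and -0.66 at 19 days. E11.5 progenitors thus stood apart from the other 4 groups on this probe, while those 4 lay within 2 log2 units of each other. The other probe, at chr2:26319440-26319499, was well above background on all 10 arrays and read -1.97 and -1.44 in E11.5 progenitors. It read -1.16 and -0.94 in P0 progenitors, -0.12 and -0.44 in P0 non-progenitors, -0.90 and -1.16 at 8 days and -1.65 and -1.52 at 19 days. On that probe too the E11.5 values lay below all P0 progenitor, P0 non-progenitor and 8-day values, by smaller differences, but their range held both 19-day values.

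Notch3, a receptor of mural cells such as pericytes and smooth muscle (probe at chr17:32257848-32257907 on mm9), was at -0.40 and -0.75 in E11.5 progenitors, -1.21 and -1.03 in P0 progenitors, 1.05 and 0.56 in P0 non-progenitors, -0.17 and 0.63 at 8 days and -0.23 and 0.25 at 19 days. P0 progenitors were the lowest group and P0 non-progenitors the highest, with the 8-day values overlapping those of P0 non-progenitors and of the 19-day culture.

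Of the ligands, Jag1 (probe at chr2:136907433-136907492 on mm9) was at -0.44 and -1.16 in E11.5 progenitors, 1.87 and 2.44 in P0 progenitors, 3.11 and 3.23 in P0 non-progenitors, -1.07 and -0.79 at 8 days and -0.91 and 0.50 at 19 days. The newborn groups lay above the other 3, whose values overlapped. Jag2, the other Jagged ligand (chr12:114146887-114146946), was well above background on 3 of 10 arrays. It read -2.28 on 8-day culture replicate 2 and -4.32 and -4.53 on the 19-day arrays, and between -6.58 and -4.91 on the 7 arrays where it was not well above background. All 3 arrays with Jag2 above background were on slide 2.

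Dll1, a Delta-like ligand of the early nephron, also had 2 probes that differed. The tested probe, at chr17:15513726-15513785 on mm9, was well above background on 7 arrays and read -3.84 and -4.57 in E11.5 progenitors, -2.19 and -4.12 in P0 progenitors, -1.10 and -3.27 in P0 non-progenitors, -4.15 and -3.75 at 8 days and -4.09 and -4.37 at 19 days. Neighbouring groups in the order of its levels overlapped throughout. The other probe, at chr17:15504623-15504682 and printed on 10 spots per array, read -3.81 and -5.94 in E11.5 progenitors, -2.63 and -3.31 in P0 progenitors, -0.03 and 0.64 in P0 non-progenitors, -6.09 and -5.27 at 8 days and -6.18 and -6.12 at 19 days. On this probe P0 non-progenitors stood above all other groups, P0 progenitors came next, and no culture array was well above background. The SD between its 10 spots was 0.07 on each P0 non-progenitor array and reached 0.95 on a 19-day array.

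**Figure D2:**
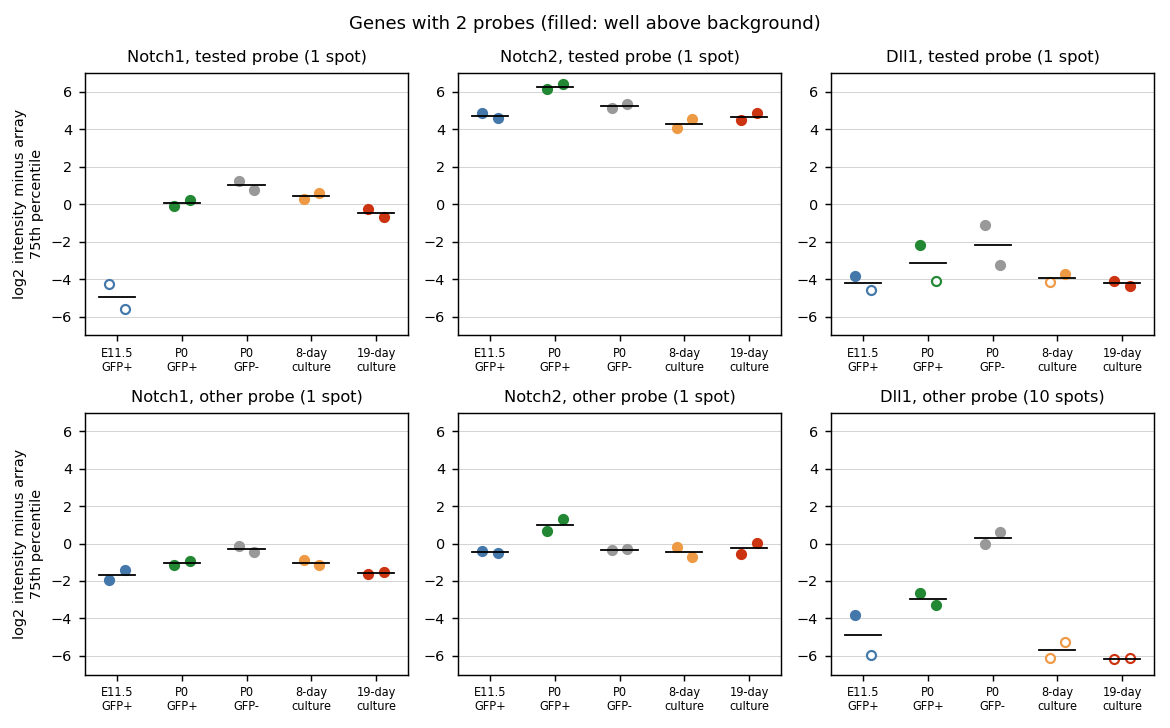
The 3 Notch pathway genes with 2 probes, tested probe above and other probe below, as log2 intensity minus the array's 75th percentile, with points for arrays, bars for group means and open points where a probe was not well above background. The Notch2 probes share their highest group, the Notch1 probes differ in E11.5 progenitors, and the Dll1 probe printed on 10 spots separates P0 non-progenitors, at -0.03 and 0.64, from all other groups.

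Lfng, the lunatic fringe glycosyltransferase (probe at chr5:141091224-141091283 on mm9), was not well above background in E11.5 progenitors, at -6.45 and -6.41. It was at -3.58 and 0.28 in P0 progenitors, 0.90 and 1.36 in P0 non-progenitors, -1.62 and -2.36 at 8 days and -0.89 and -0.29 at 19 days. The lowest group was thus E11.5 progenitors and the highest P0 non-progenitors, while the P0 progenitor arrays lay almost 4 log2 units apart and spanned both cultures.

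The Lfng promoter is shown because it is the one member promoter here that holds the letters GTGGGAA, a sequence that Rbpj is known to bind. Promoters came from a RefSeq table on assembly GRCm38.p6 with 250 bases before to 50 after each start. Of the 10 genes, 7 were matched, with 8 promoters, and Hes1, Hey1 and Heyl were not matched. The letters GTGGGAA were found on either strand in 1 of these 8 promoters and in 6.38% of all 32851 promoters of the table. The 250 bases before the Lfng start are at chr5:140607091-140607340 on the plus strand, with GTGGGAA first in position -109 and the overlapping letters CACGTG, which Hes and Hey proteins can bind, at -112 in one run of capitals. The other capitals, at -135, are the shorter core TGGGAA on the opposite strand.
Lfng: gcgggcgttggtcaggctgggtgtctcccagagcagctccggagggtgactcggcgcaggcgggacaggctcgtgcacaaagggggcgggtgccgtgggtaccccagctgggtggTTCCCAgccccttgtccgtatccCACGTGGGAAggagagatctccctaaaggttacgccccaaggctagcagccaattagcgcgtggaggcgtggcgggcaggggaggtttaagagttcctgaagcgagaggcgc

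The core TGGGAA occurred in 25.6% of all promoters and CACGTG in 7.15%, and among the 8 member promoters each was found in Lfng alone. CACNAG, another sequence bound by Hes proteins, was found in 5 of the 8 and in 42.5% of all. The promoters of Jag1 and Notch2 are shown for comparison, because both genes were higher in P0 progenitors than in E11.5 progenitors and lower in both cultures than in P0 progenitors, as given below. Neither holds GTGGGAA, its core or the letters CACGTG in the window of the RefSeq set, which says only that these letters are not there. The Jag1 sequence is chr2:137116521-137116770 on the minus strand and the Notch2 sequence is chr3:98013288-98013537 on the plus strand, both on GRCm38.p6 and in the direction of the gene.
Jag1: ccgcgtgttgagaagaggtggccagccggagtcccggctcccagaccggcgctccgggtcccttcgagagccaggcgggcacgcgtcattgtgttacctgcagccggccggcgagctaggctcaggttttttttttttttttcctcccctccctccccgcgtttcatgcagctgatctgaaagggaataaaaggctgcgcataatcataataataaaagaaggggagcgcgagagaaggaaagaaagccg
Notch2: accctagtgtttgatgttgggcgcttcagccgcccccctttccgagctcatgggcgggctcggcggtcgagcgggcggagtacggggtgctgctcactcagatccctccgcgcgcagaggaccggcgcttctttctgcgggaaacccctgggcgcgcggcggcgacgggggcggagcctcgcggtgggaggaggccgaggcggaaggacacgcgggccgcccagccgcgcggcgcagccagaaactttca

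Among the target genes, Hey1 (probe at chr3:8663432-8663491 on mm9) was at 3.05 and 3.43 in E11.5 progenitors, 4.07 and 4.52 in P0 progenitors, 2.60 and 2.26 in P0 non-progenitors, 0.67 and 0.29 at 8 days and 0.82 and 0.27 at 19 days. The 3 freshly sorted groups did not overlap with each other or with the cultures, and the cultures overlapped with each other. Heyl, a related repressor (chr4:122926975-122927034), was at 0.97 and -2.84 in E11.5 progenitors, 0.97 and 0.89 in P0 progenitors, 1.17 and 0.51 in P0 non-progenitors, -6.15 and -6.43 at 8 days and -6.68 and -6.75 at 19 days. It was well above background on all 6 freshly sorted arrays and on none of the 4 culture arrays, and the E11.5 arrays lay far apart.

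Hes1, a repressor that many cell types express (probe at chr16:30067820-30067879 on mm9), was at 1.71 and 2.83 in E11.5 progenitors, 1.37 and 1.44 in P0 progenitors, 2.00 and 2.05 in P0 non-progenitors, 1.66 and 1.15 at 8 days and 0.79 and 0.53 at 19 days. The 19-day values were the lowest and overlapped with no other group. The E11.5 values spanned those of P0 non-progenitors, and the 8-day values spanned those of P0 progenitors.

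The 5 groups were set against each other in 7 comparisons with limma, and a gene was called at a Benjamini-Hochberg adjusted p under 0.05 over all 26253 genes tested. Several comparisons share arrays: 3 use the E11.5 progenitors, 4 use the P0 progenitors and 3 use each culture, so they are not independent of each other. The P0 progenitors against P0 non-progenitors show what sets GFP-positive cells apart within the newborn kidney. Notch2 was 2.07-fold higher in P0 progenitors (log2 difference 1.05 ± 0.21 SE, adjusted p 0.0235) and Hey1 was 3.63-fold higher (1.86 ± 0.29, adjusted p 0.0105). Notch3 was 3.80-fold lower (-1.92 ± 0.36, adjusted p 0.0197). These were 3 of 10 members, against 8.38% of all tested genes called in this comparison, 4.23% higher and 4.15% lower. The members' median log2 difference was -0.79, against 0.10 over all tested genes, and 7 of the 10 had groups that did not overlap, against 56.0% of tested genes.

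The other 7 members were not called in the newborn comparison, among them Hes1 (log2 difference -0.62) and Heyl (0.08). Notch1 (log2 difference -0.97, 95% interval -2.07 to 0.13), Jag1 (-1.02, -2.15 to 0.11) and Lfng (-2.78, -5.28 to -0.29) had lower values in P0 progenitors on both arrays, with adjusted p 0.285 to 0.295 for Notch1 and Jag1 and 0.181 for Lfng. The Lfng difference rested on which P0 progenitor array was used: it was -4.71 and called without replicate 2, the array with the high value (limma, adjusted p 0.0127), and -0.85 and not called without replicate 1 (adjusted p 0.509). In a fit across all 39819 probes that passed the filter, where 7.09% were called, the Dll1 probe printed on 10 spots was 9.70-fold lower in P0 progenitors (-3.28 ± 0.73, adjusted p 0.0389). The second Notch2 probe gave 1.31 in the same fit with adjusted p 0.0695.

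P0 non-progenitors also held RNA of many other cell types. Of the endothelial markers, 12 of 13 were lower in P0 progenitors, and their summed level, in multiples of the 75th percentile, was 5.44 to 6.77 in P0 progenitors and 52.6 to 53.2 in P0 non-progenitors. On the P0 progenitor arrays 6 of the 13 were well above background on both, Kdr, Cldn5, Pecam1, Egfl7, Eng and Flt1, and 4 on neither, Tie1, Esam, Sox17 and Sox18. Kdr, a VEGF receptor, gave 60.1% of the summed level in P0 progenitors, and without it the sums were 1.82 to 3.06 against 44.6 to 47. Of the stromal and mural markers, 7 of 12 were lower. Their summed level (460 to 507 against 572 to 627) came mostly from Mcam, an adhesion protein of mural and endothelial cells whose probe gave 97.2% of it in P0 progenitors, and without Mcam the sums were 10.8 to 15.9 against 148 to 155. Sums without the largest marker were added after the data were seen. Of the tubule and ureteric markers 10 of 12 were lower (5.75 to 9.29 against 122 to 125). Podocyte markers were lower for 6 of 7 measured, at 3.54 to 3.55 against 28.3 to 29.7. Leukocyte markers were lower for 4 of 7 (17.7 to 19.6 against 29.2 to 29.5). One of them, Csf1r, gave 94.5% of their sum in P0 progenitors, and without it the sums were 0.812 to 1.24 against 14.5 to 15.8. Erythroid markers were lower for 4 of 6 measured (11.6 to 16.4 against 644 to 726). The erythroid sums were 21.5 to 63.3 in E11.5 progenitors, 1.08 to 1.17 at 8 days and 0.656 to 1.05 at 19 days. In these bulk samples fewer cells of a type and less RNA per cell cannot be told apart, and the part of these cell types in the Notch3, Lfng, Jag1 and Dll1 values was not tested.

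Leaving out any 1 of the 4 arrays ended the Notch2 call (log2 difference 0.92 to 1.18, adjusted p 0.0806 to 0.153) and the Notch3 call (-2.17 to -1.68, adjusted p 0.0649 to 0.119), and the Hey1 call was lost without replicate 2 of P0 progenitors or of P0 non-progenitors (1.63 to 1.69, adjusted p 0.0712 to 0.0824). Notch2 was also not called after quantile normalization (0.76, adjusted p 0.0835) or without an intensity trend (adjusted p 0.0814).

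**Figure D3:**
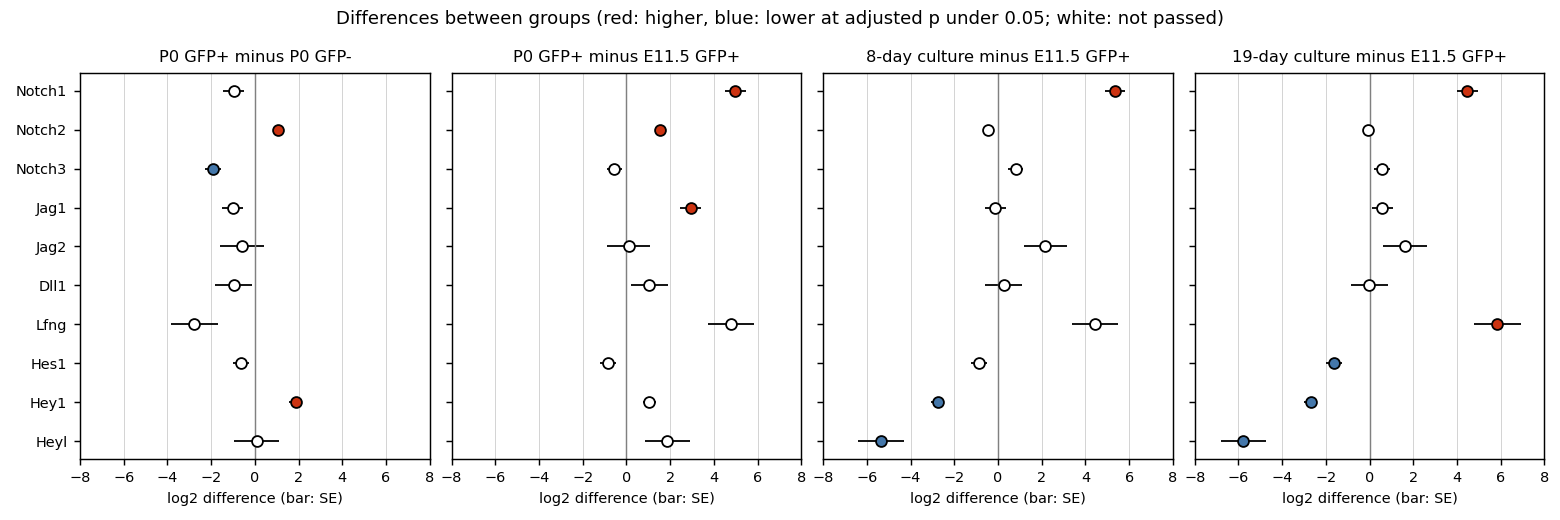
Log2 difference of the tested probe of each Notch pathway gene in 4 of the 7 comparisons, with bars for the standard error, red for higher and blue for lower at a limma adjusted p under 0.05, and white for not called. Notch2 and Hey1 were higher and Notch3 lower in P0 progenitors against P0 non-progenitors, and in both cultures against E11.5 progenitors Notch1 was higher and Hey1 and Heyl lower, with the Notch1 difference resting on 1 of its 2 probes.

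From E11.5 to birth, within GFP-positive cells, the ligand Jag1, the receptor Notch2 and 1 of the 2 Notch1 probes were higher, while Notch3 was not called (log2 difference -0.55). Jag1 was 7.73-fold higher in P0 progenitors (log2 difference 2.95 ± 0.48 SE, adjusted p 0.0213) and Notch2 2.94-fold higher (1.55 ± 0.21, adjusted p 0.0117). The tested Notch1 probe was at least 19.3-fold higher (4.98 ± 0.47, adjusted p 0.00379), a bound because that probe was not well above background in E11.5 progenitors. These were 3 of 10 members, against 3.95% of tested genes called, 2.03% higher and 1.92% lower. No member was called lower in limma, and 1 had an unadjusted p under 0.05 in that direction, Hes1 (-0.86, adjusted p 0.266). The members' median was 1.30, against -0.12 over all tested genes, and 7 had groups that did not overlap, against 52.6%. Lfng was not called (4.78 ± 1.07, adjusted p 0.0565, with P0 progenitors at least 7.04-fold above the E11.5 background level), and Hey1 was not called either (1.05, 95% interval 0.37 to 1.73, adjusted p 0.102).

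The other Notch1 probe gave a log2 difference of 0.65 ± 0.32 for the same comparison in the fit of all probes (adjusted p 0.343), so the size of the Notch1 change from E11.5 to birth depends on the probe. The other Notch2 probe gave 1.44 ± 0.35 (adjusted p 0.0746), close to the tested probe. In the same comparison 4 of 12 markers of the pretubular aggregate and renal vesicle, the first epithelial structures of the nephron, were higher in P0 progenitors, with summed levels of 60.7 to 64.6 against 11.1 to 14.9 in E11.5 progenitors. Wnt4, one of them, was at 5.04 and 5.12 in P0 progenitors and 1.07 and 2.45 in E11.5 progenitors. Of the tubule and ureteric markers 3 of 12 were higher (5.75 to 9.29 against 1.46 to 3.24), and the part of these cells in the Jag1 and Notch2 values was not tested.

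The Notch2 call was lost without either P0 progenitor array (1.43 to 1.68, adjusted p 0.0695 to 0.0966), and the Jag1 call without either of them or without E11.5 progenitors replicate 2 (2.59 to 3.24, adjusted p 0.067 to 0.148). The Lfng difference was 6.71 and called without P0 progenitors replicate 1 (adjusted p 0.0105), and 2.85 and not called without replicate 2 (adjusted p 0.09), where the bound fell to 1.85-fold. Heyl turned on the E11.5 arrays, at 3.77 and called without replicate 1 (adjusted p 0.016) and at -0.04 without replicate 2 (adjusted p 0.983). In a fit of these 2 groups alone the Notch1 call was lost (adjusted p 0.0528), as was that of Jag1. After normexp background correction the Notch1 log2 difference was 2.11 ± 0.27 in place of 4.98, and was still called in limma (adjusted p 0.0108).

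After 8 days in culture, E11.5 cells had lower levels of the Hey targets. Hey1 was 6.78-fold lower than in E11.5 progenitors (log2 difference -2.76 ± 0.29 SE, adjusted p 0.00529) and Heyl at least 10.6-fold lower (-5.35 ± 1.04, adjusted p 0.0345), a bound because Heyl was not well above background in culture. Hes1 was not called (-0.87, 95% interval -1.73 to 0.00, adjusted p 0.249). The tested Notch1 probe was at least 25.1-fold higher (5.36 ± 0.47, adjusted p 0.00343), while the other Notch1 probe gave 0.67 ± 0.32 (adjusted p 0.306). These were 3 of 10 members, against 4.80% of tested genes called, 2.76% higher and 2.04% lower, with a members' median of 0.06 against 0.02. Groups did not overlap for 8 members and for 45.5% of tested genes.

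The remaining members were not called at 8 days. Notch2 (-0.45, 95% interval -0.93 to 0.04), Notch3 (0.80, -0.04 to 1.65) and Jag1 (-0.13, -1.26 to 1.00) had intervals that held 0. Lfng was at least 5.56-fold above the E11.5 background level (4.44 ± 1.07, adjusted p 0.0616). Six2 stayed at 5.21 and 4.61 in these cultures, while 4 of 12 stromal and mural markers were higher and 1 lower. Their summed level was 517 to 615 against 534 to 578 with Mcam, and 43.6 to 49.6 against 21.6 to 27.4 without it, and Col3a1, a fibrillar collagen, went from -1.10 and -0.76 to 3.72 and 3.01. The part of those cells was not tested. Of 13 endothelial markers, 0 were called at 8 days in limma, with 0 at an unadjusted p under 0.05. Kdr, Egfl7, Eng and Cldn5 were well above background on every E11.5 and 8-day array, and 4 of the 13 in E11.5 progenitors and 5 at 8 days were so on neither array.

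The Heyl difference at 8 days ran from -7.26 without E11.5 progenitors replicate 2 to -3.44 without replicate 1, both called, and without replicate 1 the bound fell to 2.83-fold. The call was lost without either 8-day array (-5.49 to -5.21, adjusted p 0.106 to 0.11), with a slide block (adjusted p 0.11), after normexp background correction (-1.91, adjusted p 0.16) and without an intensity trend (adjusted p 0.0629). A fit of these 2 groups alone ended all 3 member calls (adjusted p 0.0988 for Hey1, 0.102 for Notch1 and 0.217 for Heyl), while with a slide block Hey1 (-2.57, adjusted p 0.0272) and the tested Notch1 probe (5.19, adjusted p 0.0195) were still called.

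At 19 days the 3 target genes were all lower than in the E11.5 progenitors. Hey1 was 6.48-fold lower (log2 difference -2.70 ± 0.29 SE, adjusted p 0.00141), Hes1 3.05-fold lower (-1.61 ± 0.37, adjusted p 0.0247) and Heyl at least 14.0-fold lower (-5.77 ± 1.04, adjusted p 0.0101). Lfng was at least 14.6-fold higher (5.84 ± 1.07, adjusted p 0.0106), and the tested Notch1 probe at least 13.7-fold higher (4.48 ± 0.47, adjusted p 0.00131), while the other Notch1 probe gave 0.12 ± 0.32 (adjusted p 0.853). These were 5 of 10 members, against 16.8% of tested genes called, 7.23% higher and 9.59% lower, with a members' median of 0.28 against 0.01. Groups did not overlap for 7 members and for 60.0% of tested genes. Notch2 (-0.06, 95% interval -0.54 to 0.43), Notch3 (0.58, -0.26 to 1.43) and Jag1 (0.59, -0.54 to 1.72) were not called.

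Of the nephron progenitor markers 7 of 10 were lower and 1 higher at 19 days than at E11.5. Their summed level was 638 to 698 against 874 to 913, of which Eya1, a partner of Six2, gave 97.9% at 19 days, and without Eya1 the sums were 11.2 to 16.3 against 90.1 to 107. Eya1 was at 9.24 and 9.40 in P0 non-progenitors, close to the 9.48 and 9.42 of P0 progenitors. Of the stromal and mural markers 6 of 12 were higher and 1 lower, with sums of 618 to 672 against 534 to 578 with Mcam and 187 to 279 against 21.6 to 27.4 without it. Col1a1, a fibrillar collagen, was at 6.36 and 5.64 against -1 and -1.51. The part of these changes in the Hes1, Hey1, Heyl and Lfng values was not tested. None of the 13 endothelial markers was called in limma, and 1 had an unadjusted p under 0.05. At 19 days 7 of them were well above background on both arrays and 4 on neither.

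With a slide block, 4 of these 5 calls were lost: Hey1 (-2.31, adjusted p 0.0523), Hes1 (-1.10, adjusted p 0.383), Heyl (-5.50, adjusted p 0.165) and Lfng (6.58, adjusted p 0.114), and the tested Notch1 probe was kept (4.15, adjusted p 0.0457). Hes1 was also lost without E11.5 progenitors replicate 2 or either 19-day array (-1.74 to -1.05, adjusted p 0.0672 to 0.102), Heyl without 19-day culture replicate 1 (adjusted p 0.0506) and Lfng without 19-day culture replicate 2 (adjusted p 0.0514). The Heyl difference ran from -7.68 without E11.5 progenitors replicate 2 to -3.87 without replicate 1, both called, and without replicate 1 the bound fell to 3.74-fold. Normexp background correction ended the Heyl (-2.19) and Lfng (1.84) calls.

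Between 8 and 19 days of culture no member was called, against 8.07% of tested genes (2.67% higher and 5.40% lower), and 0 of 10 had an unadjusted p under 0.05 in limma. The groups did not overlap for 4 members, against 53.0% of tested genes, and the members' median was -0.25, against -0.01. Hey1 had a log2 difference of 0.07 (95% interval -0.61 to 0.74) and Notch2 one of 0.39 (-0.10 to 0.88). Hes1 gave -0.74 (-1.61 to 0.12), Jag1 0.73 (-0.40 to 1.86) and Lfng 1.40 (-1.09 to 3.89). The Hey1 interval leaves room for less than a doubling either way, while the Lfng interval does not limit the change closely. Heyl was not well above background on either side.

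Set against P0 progenitors in place of E11.5 progenitors, the cultures had lower levels of Hey1, Heyl, Notch2 and Jag1. At 8 days Hey1 was 14.1-fold lower (log2 difference -3.81 ± 0.29 SE, adjusted p 0.00154), Notch2 4-fold lower (-2 ± 0.21, adjusted p 0.00529), Jag1 8.48-fold lower (-3.08 ± 0.48, adjusted p 0.0191) and Heyl at least 38.7-fold lower (-7.22 ± 1.04, adjusted p 0.0151). At 19 days the same 4 genes were lower, Hey1 by 13.4-fold (-3.75 ± 0.29, adjusted p 0.000658), Notch2 by 3.06-fold (-1.61 ± 0.21, adjusted p 0.00436), Jag1 by 5.12-fold (-2.36 ± 0.48, adjusted p 0.0206) and Heyl by at least 51.1-fold (-7.64 ± 1.04, adjusted p 0.00519). These were 4 of 10 members at each time, against 3.97% of tested genes at 8 days (2.41% higher, 1.57% lower) and 12.7% at 19 days (5.77% higher, 6.93% lower), with members' medians of -0.57 and -0.91 against 0.13 and 0.11. Groups did not overlap for 6 members at 8 days and 8 at 19 days, against 53.1% and 64.8% of tested genes. The P0 progenitor arrays are shared by both comparisons.

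The second Notch2 probe gave -1.43 at 8 days and -1.24 at 19 days (adjusted p 0.074 and 0.0619). The Dll1 probe printed on 10 spots was well above background on both P0 progenitor arrays and on no culture array, so its difference is a bound. It was at least 3.42-fold lower at 19 days (adjusted p 0.0333 in the fit of all probes, where 10.8% were called), and at 8 days, where the bound was 2.59-fold, it was not called (adjusted p 0.0984). Notch3 had higher values in both cultures than in P0 progenitors, with log2 differences of 1.35 at 8 days and 1.13 at 19 days, and was not called (adjusted p 0.0905 and 0.0855). Markers of the pretubular aggregate and renal vesicle were lower for 2 of 12 at 8 days and 5 of 12 at 19 days, with summed levels of 11 to 11.4 and 13.8 to 18.9 against 60.7 to 64.6 in P0 progenitors. Tubule and ureteric markers were lower for 4 of 12 at 8 days and 5 of 12 at 19 days. Stromal and mural markers were higher for 3 of 12 and 7 of 12, and lower for 1 at each time, and nephron progenitor markers were lower for 2 of 10 and 4 of 10, and higher for 1 at each time. The part of all these cells in the Jag1, Notch2, Hey1 and Heyl values was not tested.

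The Hey1 and Notch2 calls against P0 progenitors were kept with a slide block at both times (Hey1 -3.62 and -3.37, Notch2 -2.24 and -2.10), whereas Jag1 (adjusted p 0.0668 and 0.173) and Heyl (adjusted p 0.0659 and 0.104) lost theirs. At 8 days Jag1 and Heyl were lost without any 1 of the 4 arrays (adjusted p 0.0667 to 0.139 and 0.0577 to 0.105) and Notch2 without P0 progenitors replicate 2 (-1.87, adjusted p 0.0564), and at 19 days Jag1 was lost without either P0 progenitor array or 19-day culture replicate 1 (-2.64 to -1.65, adjusted p 0.0735 to 0.129). The Lfng difference at 19 days turned on the P0 progenitor arrays: it was 2.99 and called without replicate 2 (adjusted p 0.037), and -0.87 and not called without replicate 1 (adjusted p 0.385).

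The rest of the pathway was followed with a list of 43 other Notch genes, of which 42 were tested. Hes3 was not well above background on both arrays of any group. In P0 progenitors against P0 non-progenitors 1 of 42 was higher and 3 were lower, together 9.52% against 8.38% of all tested genes, with a list median of 0.18 against 0.10. The share called was near that of all genes. Notch4, the endothelial receptor, was 5.26-fold lower in P0 progenitors (-2.39 ± 0.41, adjusted p 0.014). Mfng, the manic fringe enzyme, was 7.92-fold lower (-2.99 ± 0.33, adjusted p 0.00298), and Hes5, a Hes repressor, 2.65-fold lower (-1.41 ± 0.26, adjusted p 0.0177). Mib1, the ubiquitin ligase that lets ligands be taken up and so pull on the receptor, was 1.91-fold higher (0.93 ± 0.22, adjusted p 0.0467). The low Notch4 and Mfng values in P0 progenitors stand beside the low endothelial marker levels given above. Notch4 was at -0.82 and -1.05 in E11.5 progenitors and at -1.26 and -1.87 in P0 progenitors. Endothelial sums without Kdr were 0.915 to 1.77 and 1.82 to 3.06 in these groups. The part of endothelial cells was not tested.

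From E11.5 to birth 2 of 42 were higher and 1 lower, 7.14% against 3.95% of all tested genes, with a list median of 0.10 against -0.12. Nrarp, a target gene whose product restrains Notch signalling, was at -4.65 and -4.18 in E11.5 progenitors, not well above background. It was at -1.58 and -0.79 in P0 progenitors, 9.38-fold higher (3.23 ± 0.50, limma adjusted p 0.0184). After normexp background correction the Nrarp difference was 1.05 ± 0.24 and not called (limma, adjusted p 0.0596), so background limits its size. Neurl1a, a ubiquitin ligase of the Neuralized family, rose 5.82-fold (2.54 ± 0.48, adjusted p 0.0342). Dlk1, a Delta-like protein without the usual receptor-binding domain, was at 2.44 and 3.33 in E11.5 progenitors and -1.24 and -0.21 in P0 progenitors, 12.2-fold lower (-3.61 ± 0.45, adjusted p 0.00936).

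In 8-day culture against E11.5 progenitors 2 of 42 were higher and 1 lower (7.14% against 4.80% of all tested genes), and at 19 days 4 were higher and 4 lower (19% against 16.8%). The list medians were -0.08 and 0.13, against 0.02 and 0.01, and the 19-day share was near that of all genes. Notch4 was -0.82 and -1.05 in E11.5 progenitors and between -4.45 and -3.90 in the cultures. It was 9.19-fold lower at 8 days (-3.20 ± 0.41, adjusted p 0.0102), where neither array was well above background. It was also lower at 19 days (-3.24 ± 0.41, adjusted p 0.00257), where 1 of 2 arrays was well above background. Neurl1a was higher at both times (2.54 and 2.24, adjusted p 0.0323 and 0.0191), as was Spen, a corepressor that binds Rbpj (2.30 and 1.59, adjusted p 0.0172 and 0.0197). At 19 days Ncstn, a subunit of gamma-secretase (1.85), and Dtx4, a Deltex ubiquitin ligase (2.84), were also higher, and Dlk1 (-1.75), the protease Adam10 (-0.68) and Hes6 (-1.39), a Hes protein known to oppose Hes1, were lower, with adjusted p 0.0117 to 0.0352.

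From 8 to 19 days Pofut1, the enzyme that adds fucose to Notch receptors, rose (1.31, adjusted p 0.0373) and Adam10 fell (-0.61, adjusted p 0.0287), 1 of 42 each way, or 4.76% against 8.07% of all tested genes. Against P0 progenitors Dlk1 was higher in both cultures (2.76 and 1.86, adjusted p 0.0206 and 0.0349) and Notch4 lower (-2.57 and -2.61, adjusted p 0.0198 and 0.00803). Notch4 was well above background on neither 8-day array and on 1 of the 19-day arrays, so background limits the size of its differences. After normexp background correction the 8-day Notch4 difference was -0.87 ± 0.26 and not called (limma, adjusted p 0.118). At 19 days Numbl, a relative of the Notch inhibitor Numb, was higher (2.70, adjusted p 0.0459) and Nrarp lower (-2.49, adjusted p 0.0196), so that 1 of 42 rose and 1 fell at 8 days (4.76% against 3.97%) and 2 rose and 2 fell at 19 days (9.52% against 12.7%), shares near or below those of all genes.

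Rbpj, Dll4 and Hey2 were not called in any of the 7 comparisons. Rbpj was at 3.62 and 3.38 in P0 progenitors, 2.62 and 2.07 in P0 non-progenitors, 3.30 and 2.65 at 8 days and 3.93 and 3.71 at 19 days, while its E11.5 arrays read 1.01 and 3.46. Dll4, an endothelial ligand, lay between -3.72 and -2.06 on all 10 arrays. Hey2 was well above background on 4 of the 10 arrays and on neither array of either culture.

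Of the 26 calls over this list, 23 were lost without at least 1 array, 18 with a slide block and 20 in fits of the compared groups alone. Normexp ended 4 of the 26 and a fit without an intensity trend 9. Mfng in the newborn comparison was kept under each of these. Notch4 at 8 days against E11.5 progenitors was kept without any 1 array and with a slide block. It was lost in a limma fit of the compared groups alone (-3.20, adjusted p 0.116). Notch4 at 19 days against E11.5 progenitors was kept without any 1 array and lost with a slide block (-2.89, adjusted p 0.0745).

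**Figure D4:**
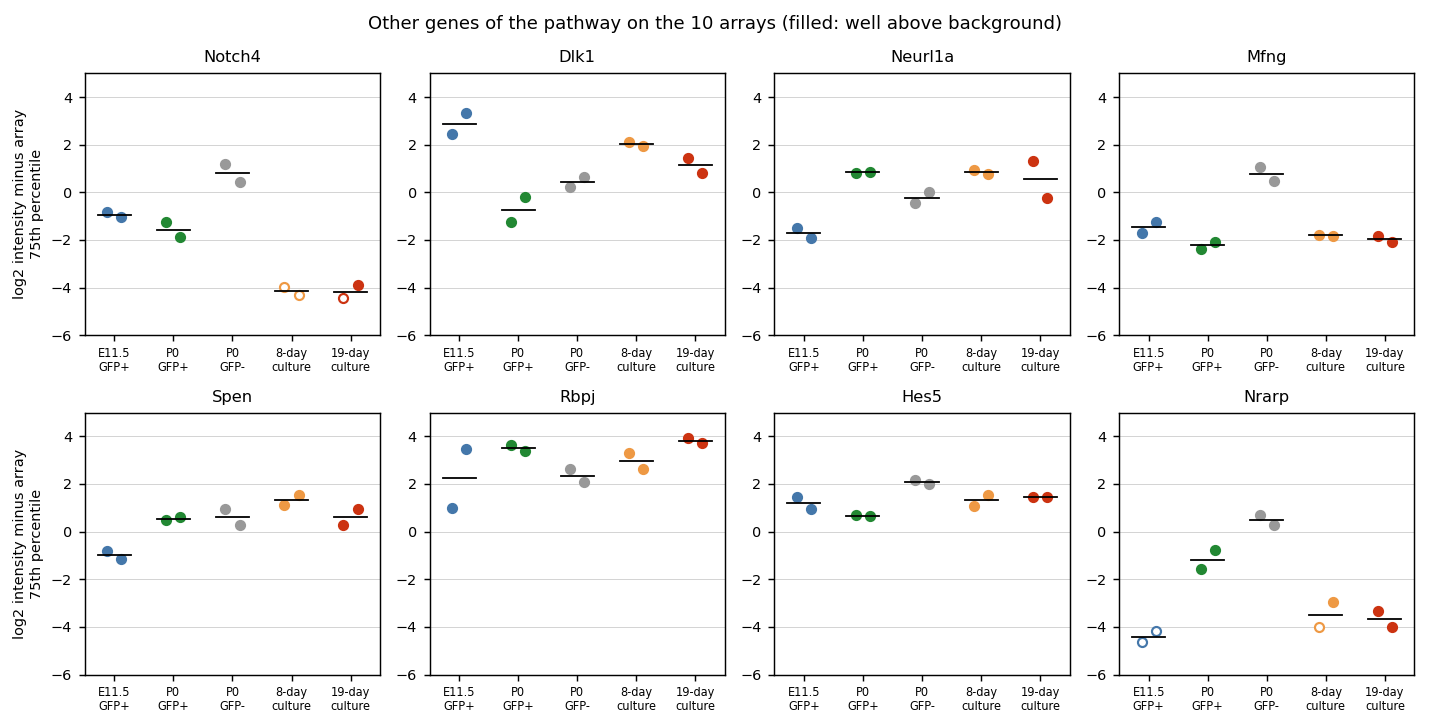
Levels of 8 other Notch pathway genes on the 10 arrays, as log2 intensity minus the array's 75th percentile, with points for arrays, bars for group means and open points where the probe was not well above background. Notch4 and Mfng are highest in P0 non-progenitors, Nrarp is at or below -2.95 in E11.5 progenitors and in both cultures, and the E11.5 values of Rbpj, 1.01 and 3.46, lie apart.

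Among the RefSeq promoters, 33 of the 43 other pathway genes were matched, with 44 promoters. Of the 44, 6 held GTGGGAA on either strand, against 6.38% of all promoters. They belonged to Psen2, Aph1a, Spen, Hes5, Hey2 and Hes7. Hes5 and Hey2 each held it 2 times, once on each strand, an arrangement that is shown because these genes are among the best known targets of Rbpj. The windows, with the match in capitals and 10 bases on each side, are on chr4:154960687-154960713 and chr4:154960830-154960856 for Hes5 (plus strand) and on chr10:30842974-30843000 and chr10:30842771-30842797 for Hey2 (minus strand), on GRCm38.p6 and in the direction of the gene.
Hes5 first: ggcgagcgcgTTCCCACagcccggaca
Hes5 second: gccgccgagtGTGGGAAcggccgcggc
Hey2 first: cgcggtggcaTTCCCACgcctctgcca
Hey2 second: gggctgcagcGTGGGAAagaacctcca

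Hes5, with both matches, was at 1.46 and 0.95 in E11.5 progenitors, 0.68 and 0.66 in P0 progenitors, 2.16 and 1.99 in P0 non-progenitors, 1.08 and 1.54 at 8 days and 1.46 and 1.46 at 19 days. Its culture values overlapped with those of E11.5 progenitors, where Hey1 and Heyl were lower in culture. Lfng, with 1 match, and Hes5 were both highest in P0 non-progenitors, while Nrarp, whose window held CACGTG and no GTGGGAA, was highest there too, at 0.69 and 0.28.

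Across the 10 arrays the members differed in which genes their pattern was most like. Pearson's correlation was taken with 17372 genes that had a RefSeq symbol, as a description, since the arrays fall into 5 groups that shape all such values. Nearest to Hey1 were Pax2 (r = 0.970), a transcription factor of the nephron lineage, Ccdc85c (0.968) and Cftr (0.953). Nearest to Heyl were Frem2 (0.979), Ndufv2 (0.971) and Plet1 (0.966). Jag1 was nearest to Rab11fip4 (0.971), to Slc12a1 (0.970), the salt transporter of the loop of Henle, and to Egfl6 (0.966).

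Notch2 was nearest to Ctxn3 (0.948), Rhbdl2 (0.945) and Rnase12 (0.944), and Notch3 to Atp6v1a (0.945), Ambp (0.936) and Epn3 (0.928). The tested Notch1 probe was nearest to Fam131a (0.968), 0610009E02Rik (0.966) and Irf8 (0.958), Hes1 to Cisd1 (0.957), Smco4 (0.946) and Ddx25 (0.920), and Lfng to Rbl2 (0.961), Prdx5 (0.960) and Oip5os1 (0.948). Between members the highest values were 0.865 for Lfng with Notch1, 0.861 for Hey1 with Heyl and 0.769 for Hey1 with Notch2.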

How the data were processed

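Per the file headers, the authors scanned 10 one-colour arrays and deposited intensity values from Agilent Feature Extraction 11.5.1.1, corrected for background and spatial trend on each array but not scaled between arrays. Per the labels' protocols, cells were sorted by flow cytometry and RNA was amplified and labelled with Cy3. The data of P0 progenitors replicate 2 had been saved with 3 significant digits and some altered gene names, so names came from an E11.5 array.

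From every log2 intensity the 75th percentile of its array was subtracted, taken over 59305 non-control spots. Outlier spots were left missing, spots of a probe were averaged, and a gene took its probe with the highest mean. Tested were genes read well above background by both arrays of any group, 26253 of 34607 names. Group means were estimated from the 10 arrays together with limma 3.58.1 in R 4.3.3 (with the package data.table, version 1.17.8), with an intensity trend, 5 residual and 2.49 prior degrees of freedom, and 2-sided p-values were adjusted by Benjamini-Hochberg within each of 7 comparisons at 0.05. The procedure was tested on simulated data.

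A fold against a group in which the probe was not well above background is a bound: values of that group below the dimmest well-measured probe of their array were set to it. For Nrarp in E11.5 progenitors and Notch4 at 8 days no value lay below that probe, so the plain estimate is given. These bounds hold for the deposited background correction. Normexp gave smaller differences for Heyl and Lfng in culture and for Notch1 from E11.5 to birth, among others. In the wider list it did so for Nrarp and Neurl1a from E11.5 to birth. The same held at 8 days for Neurl1a against E11.5 progenitors and Notch4 against P0 progenitors. Alternatives were quantile scaling, normexp with an offset of 50, other filters, mean of probes, no intensity trend, replicate and slide blocks, a fit of the compared groups alone and leaving out each array. Fits of 1 slide and of all 39819 probes were added after seeing the data.

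All members were named by rule. From the wider list, genes called in any comparison and Notch4, Dll4, Rbpj, Hes5, Hey2 and Nrarp were named, with the 3 genes of nearest pattern for each member called, and Six2, Cited1 and Wnt4 as checks of the sort. The members and lists were chosen with earlier results of these data known. Cited1 was at 6.03 and 5.53 in P0 progenitors and 1.33 and 0.45 in P0 non-progenitors. Probe positions are on mm9 and promoters on GRCm38.p6; the gene structure at the probes was not analysed here.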

Additional observations from a re-analysis of the deposited data

How the results depend on the processing

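No member changed sign with a call under any alternative tried. Of the 22 calls of a member among 70, all 22 were kept without a filter on dim probes, with the mean of a gene's probes and with a replicate block, and all 17 that could be tested were kept with a filter on all arrays. That filter passed a gene when any of its probes was well above background on all 10 arrays. Notch1 passed through its other probe, so its 3 calls still used the probe that was dim in E11.5 progenitors. The calls lost were 1 with quantile normalization, 2 without an intensity trend, 3 with normexp, 8 with the compared groups alone, 9 with a slide block, 2 of 13 with slide 1 alone, and 7 of 7 with the other probe of Notch1 or Notch2. Leaving out 1 array lost 13 of the 22 at least once and 9 never, and the cause of these changes was not tested. The replicate numbers showed no pairing in expression: the correlation of same-numbered arrays' deviations ran from -0.0137 to 0.0285, and none of 10 pairs exceeded 0.1. Whether same-numbered samples shared a litter or sort is not stated, and these correlations cannot show it. In the wider list the replicate block ended 2 calls, Mib1 in the newborn comparison and Pofut1 between the cultures.

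The count of members called in P0 progenitors against E11.5 progenitors was 3, and 1 with the groups alone. For the 8-day culture against E11.5 progenitors it was 3, and 0 with the groups alone. For the 19-day culture against E11.5 progenitors it was 5, and 3 with normexp, 3 with the groups alone and 1 with a slide block. With a filter on all arrays it was 3, because Heyl and Lfng did not pass that filter and were not tested. Against P0 progenitors it was 4 at each culture time, and 2 with a slide block at each. Leaving out 1 array gave 0 to 1 members in P0 progenitors against P0 non-progenitors in place of 3, 1 to 4 against E11.5 progenitors, 2 to 3 at 8 days and 3 to 5 at 19 days against E11.5 progenitors, and 1 to 2 at 8 days and 3 to 4 at 19 days against P0 progenitors.

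Over all genes the calls ranged from 609 to 2817 in P0 progenitors against P0 non-progenitors (2201 as reported), from 118 to 1095 against E11.5 progenitors (1036), from 0 to 1261 at 8 days (1261) and 1297 to 4459 at 19 days (4417) against E11.5 progenitors, from 0 to 2260 between the cultures (2119), and from 124 to 1087 at 8 days (1043) and 704 to 3469 at 19 days (3336) against P0 progenitors. Quantile normalization moved the share of calls that were higher from 50.5% to 35.0% in P0 progenitors against P0 non-progenitors, from 51.4% to 65.2% against E11.5 progenitors, from 33.1% to 45.3% between the cultures and from 60.6% to 44.1% at 8 days against P0 progenitors. Signal near background limits the folds of Heyl, Lfng, Jag2 and the tested Notch1 probe, and 2 arrays a group limit all tests.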
